A study of Mus musculus with 6 samples.

Results

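The ubiquitin-specific proteases (USPs) are the largest family of deubiquitinases, cysteine proteases that remove ubiquitin from other proteins and so oppose the E3 ligases that attach it. Their mRNA levels were measured in NRAS-driven mouse blood cells with and without the lipid N-arachidonoyl dopamine (NADA). Members were the genes whose array annotation carries a symbol of Usp followed by a number, with Usp18 left out. Of 18193 genes paired with a probe set of their own, 50 fitted this rule, and 41 of them were bright enough to test. By name the rule also takes in Usp6nl, a Rab GTPase activator and no deubiquitinase, and Usp46os2, a transcript from the strand opposite Usp46.

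Removal of ubiquitin can rescue a protein from the proteasome, edit a signal such as monoubiquitin on a histone or on a DNA repair protein, or return ubiquitin to the free pool. Individual USPs act at defined places, among them the proteasome, the outer membrane of mitochondria, endosomes, chromatin, the nucleolus and replication forks. Many work only with a partner protein. The WD40-repeat protein encoded by Wdr48 activates Usp1, Usp12 and Usp46, and Usp22 works inside the SAGA coactivator complex.

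The cells, Ba/F3-N, were the interleukin-3-dependent mouse pro-B line Ba/F3 after transformation with oncogenic NRAS-G12D, so both groups carry the oncogene. RNA was taken from 3 samples given 1 µM NADA, a conjugate of arachidonic acid and dopamine, and from 3 given an equal volume of vehicle, each after 12 hours. Each sample was hybridised to 1 Affymetrix mouse whole-genome expression array. The sources used here do not say whether the line is 1 clone or whether the samples of a group were grown apart. P-values therefore reflect the scatter of these arrays alone, which could be purely technical.

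Array medians of the deposited intensities lay between 38.0 and 39.2. Bacterial poly-A control RNAs, which enter before the labelling step, averaged 8.72 ± 0.21 log2 units in NADA and 8.14 ± 0.01 in vehicle (SD, n = 3), and the log2 ratio of 3' to 5' actin probe sets was 1.06 ± 0.05 and 0.67 ± 0.04. Both differed between the groups with no overlap. Values scaled to the poly-A RNAs are given beside the results, and the part of the actin difference was not tested. The B lineage markers were weak in this line. Of 7 on the array only Cd79b and Igll1 exceeded an intensity of 38.6, the limit used for dim probe sets, while Cd79a, Vpreb1, Pax5, Ebf1 and Rag1 did not. The leukocyte gene Ptprc and the receptor genes Il3ra, Csf2rb and Csf2rb2 did exceed it, while Kit did not (10.5 in NADA, 10.2 in vehicle). The summed intensity of these 5 haematopoietic markers was 13483 to 13574 in NADA and 5730 to 5964 in vehicle. The difference was uneven between genes. Mean intensities in NADA and vehicle were 3337 and 990 for Csf2rb, and 3574 and 703 for Csf2rb2. For Ptprc they were 6449 and 4034, and for Il3ra 152 and 106. Summed T cell markers, of which 2 of 4 were above the limit, stood at 150.3 to 157 in NADA and 140.1 to 154 in vehicle. Fibroblast, epithelial and endothelial markers, 3 of 8 above it, summed to 284 to 305 in NADA and 306 to 321 in vehicle.

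After NADA, USP mRNAs moved in both directions, in similar numbers. Of the 41 genes tested 17 rose and 19 fell, while 5 were not called (limma, Benjamini-Hochberg adjusted p under 0.05 over 10526 genes). The words rose, fell and changed are used for called genes. Over all genes tested 35.8% rose and 37.5% fell, 73.3% together, against 41.5%, 46.3% and 87.8% of the USP genes. The median log2 fold change was -0.07 for the USP genes and 0.01 for all genes, and the median size of a change, its sign left out, was 0.36 and 0.32. Among USP genes, 6 rose and 7 fell by at least 1.5-fold (14.6% and 17.1%, against 13% and 15.8% of all genes). Only Usp17la, Usp10, Usp46 and Usp39 reached 2-fold, or 9.76% of USP genes against 10.9% of all genes. The shares with larger changes thus lay near those of all genes.

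**Figure D1:**
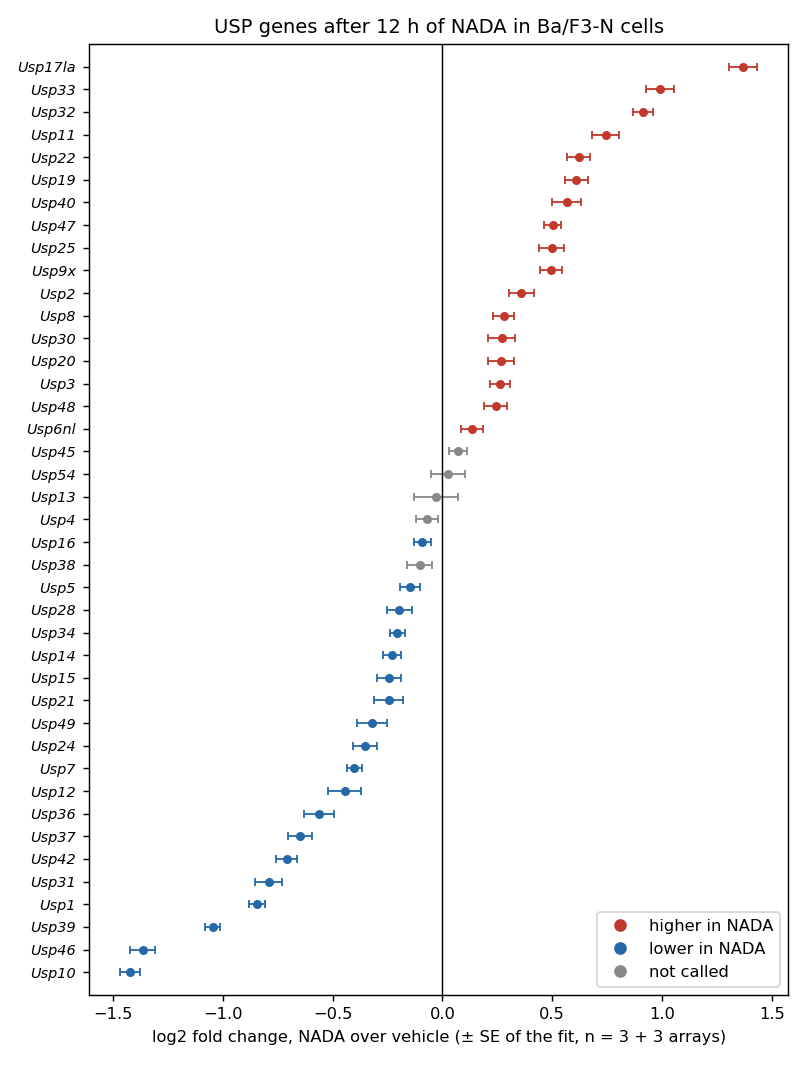
Log2 fold change of each of the 41 USP genes tested, NADA over vehicle, with the fit's standard error (3 arrays in each group), and red for higher, blue for lower and grey for not called. Values run from -1.42 for Usp10 to 1.37 for Usp17la, with 17 genes higher and 19 lower for the values as deposited, and 3 higher and 30 lower when scaled to poly-A control RNAs.

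**Figure D2:**
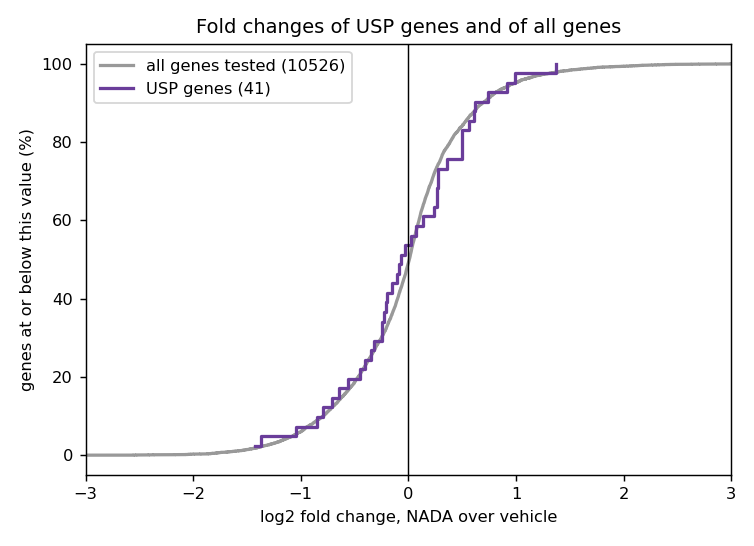
Percentage of genes at or below each log2 fold change, for the 41 USP genes (purple) and for all 10526 genes tested (grey). The few genes with still larger changes lie beyond the axis. The lines run close together and cross 50% near 0, at medians of -0.07 and 0.01.

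The deposited values make the bulk of transcripts equal between arrays. Scaled instead to the poly-A control RNAs, every log2 fold change of every gene is lower by the same 0.58. The median of all genes was -0.57 and that of the USP genes -0.65. Then 3 USP genes rose, Usp17la, Usp33 and Usp32, and 30 fell, 7.32% and 73.2% of the USP genes. Over all genes tested 6.96% rose and 76.1% fell under that scaling, so the shares of USP genes lay near those of all genes. The offset of 0.58 is itself uncertain, as the poly-A means on the 3 NADA arrays were 8.87, 8.81 and 8.49 log2 units. All genes share its error, and the calls under that scaling treat it as separate for each gene. Higher and lower below are with the values as deposited, relative to the bulk of genes.

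The 3 NADA arrays did not overlap the 3 vehicle arrays in 37 of 41 USP genes (90.2%, against 75.9% of all genes). These 37 were the 36 called genes and Usp45. Called changes were often small, under 1.5-fold for 23 genes and under 1.2-fold for 9 of those. Over all genes tested 73.3% were called, but only 13% rose and 15.8% fell by at least 1.5-fold. Most called changes were thus under 1.5-fold among all genes too. With 87.8% of USP genes called, small called changes still made up a larger share of USP genes than of all genes. The share of all genes called under 1.2-fold was not computed.

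Usp17la, known as DUB-1, belongs to a mouse family of deubiquitinases that cytokines induce in blood cells, and it had the highest fold change. Its intensities were 182, 182 and 177 in NADA and 69.7, 73.1 and 66.7 in vehicle. All NADA arrays lay far above all vehicle arrays, and the log2 fold change was 1.37 ± 0.06 (SE, n = 3 per group; limma adjusted p = 6.76e-12). This family has near-identical copies, so the gene that gave the signal is uncertain. The 2 probe sets paired with both Usp17ld and Usp17lc read 7.43 and 4.13 in NADA and 7.84 and 3.76 in vehicle, below the dim limit throughout.

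Usp10, an enzyme that acts on p53 and on ribosomal proteins of stalled ribosomes and binds the stress granule protein G3BP1, had the lowest fold change. It read 267, 277 and 277 in NADA and 749.7, 709 and 739.6 in vehicle, a log2 fold change of -1.42 ± 0.04 (limma adjusted p = 6.64e-14). Usp46, an enzyme that works with Wdr48, read 175, 177 and 156 in NADA against 449, 423 and 433 in vehicle. Its log2 fold change was -1.37 ± 0.06 (limma adjusted p = 2.37e-12), again with wide separation of the groups.

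The stretches of 250 bases before the annotated starts of these 3 genes are shown because they are the genes with the highest and the lowest fold changes. They come from RefSeq on GRCm38.p6 and run 5' to 3' on the strand of the gene. The coordinates are chr7:104856766-104857015, plus strand for Usp17la, chr8:119910110-119910359, plus strand for Usp10 and chr5:74068412-74068661, minus strand for Usp46, and capitals mark matches to the motifs listed next.
Usp17la: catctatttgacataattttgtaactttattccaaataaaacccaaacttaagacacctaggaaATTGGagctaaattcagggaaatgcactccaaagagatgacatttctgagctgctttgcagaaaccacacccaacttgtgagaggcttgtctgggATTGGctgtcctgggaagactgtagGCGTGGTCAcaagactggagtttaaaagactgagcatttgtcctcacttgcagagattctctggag
Usp10: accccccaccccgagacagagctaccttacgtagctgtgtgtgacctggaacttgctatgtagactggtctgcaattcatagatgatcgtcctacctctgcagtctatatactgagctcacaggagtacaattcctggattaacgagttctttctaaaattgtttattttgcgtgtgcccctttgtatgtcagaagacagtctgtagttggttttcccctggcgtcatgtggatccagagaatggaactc
Usp46: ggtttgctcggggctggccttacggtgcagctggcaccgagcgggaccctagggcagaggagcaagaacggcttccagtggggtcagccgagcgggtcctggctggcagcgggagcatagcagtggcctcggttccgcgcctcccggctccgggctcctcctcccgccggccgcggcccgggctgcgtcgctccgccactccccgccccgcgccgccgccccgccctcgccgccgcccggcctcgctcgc
Motifs were searched on both strands: CACGTG (E-box), TTCCCGCC (E2F), GTAAACA (FOXO), TTCNNTTTC (interferon response element), TGACNNNGC (antioxidant response element), TGACGTCA (cyclic AMP response element) and CCAAT. The Usp17la stretch held 2 CCAAT matches and 1 antioxidant response element match. The stretches of Usp10 and Usp46 held none of the 7. They also differed in base composition, with 42.4% G and C in Usp17la, 46.4% in Usp10 and 77.6% in Usp46.

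RefSeq stretches were found for 33 of the 41 USP genes. CCAAT was in 3 of 14 genes that rose and 3 of 14 that fell, and the table's 32851 promoters held it in 33.8%. An E-box was in 1 of 14 and 2 of 14 (6.02% of all promoters), and the antioxidant response element in 3 of 14 and 2 of 14 (10.2%). The interferon response element was in 1 of 14 and 1 of 14 (7.13%) and the E2F motif in 1 of 14 and 0 of 14 (1.86%). FOXO and cyclic AMP motifs were in 0 of the 33 (3.17% and 1.55%). A match is a run of letters and not a measured binding site.

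The USP genes were grouped by role, in lists made with earlier results of these data known. Their counts stand beside 35.8% higher and 37.5% lower for all genes as deposited, and 6.96% and 76.1% scaled to the poly-A RNAs, and no list was tested against other genes.

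Among USPs that act in DNA repair, replication and control of p53, 4 of 10 tested rose and 5 fell (median log2 fold change -0.06, and -0.64 scaled to the poly-A RNAs, with 0 higher and 8 lower). Those that fell were Usp10, Usp1, Usp37, Usp7 and Usp28. Usp1, which takes monoubiquitin off FANCD2 and PCNA, read 2178, 2201 and 2018 in NADA and 3910.3, 3882 and 3698 in vehicle. The NADA arrays were all lower, with a log2 fold change of -0.85 ± 0.04 (limma adjusted p = 3.20e-12), and both other Usp1 probe sets fell further, by 1.40 and 1.33 on the log2 scale. Usp37, which stabilises cyclin A, read 211, 193 and 203 in NADA and 313, 306 and 332 in vehicle (log2 fold change -0.65 ± 0.05). Usp7, which stabilises the p53 ligase MDM2 and p53 itself, read 1332, 1303 and 1235 against 1703, 1728 and 1675. Its fall of 0.40 on the log2 scale was shallow, but all 7 of its probe sets fell. Usp28, known to stabilise MYC, changed by -0.20.

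The repair enzymes that rose were Usp11, Usp47, Usp3 and Usp48. Usp11, a partner of BRCA2, read 168, 174 and 156 in NADA and 102, 99.2 and 95.6 in vehicle (log2 fold change 0.74 ± 0.06). Usp47, which acts on DNA polymerase beta, read 901, 882 and 846 against 629, 616 and 611 (0.50 ± 0.04), and all 3 of its probe sets rose. NADA values exceeded vehicle values on every array for both genes. Usp3, a histone H2A enzyme, and Usp48 had log2 fold changes of 0.26 and 0.24. For Usp3 the other 3 probe sets were not called (-0.05 to 0.09), and with probe sets averaged it was no longer called (0.07, limma adjusted p = 0.189). Usp45, which acts on the repair nuclease subunit ERCC1, was not called (0.07).

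Of the USPs of chromatin and RNA processing 6 of 7 tested fell and 1 rose, against 37.5% and 35.8% of all genes, and 1 of the 6, Usp16, was marginal (median -0.32, and -0.90 scaled to the poly-A RNAs, with 6 lower and 0 higher). These counts depend on how genes with several roles were placed. The histone H2A enzyme Usp3, which rose, was counted with the repair enzymes. Usp39 lacks protease activity and serves in assembly of the spliceosome. It read 1291, 1304 and 1213 in NADA and 2650.0, 2591 and 2622 in vehicle, with little scatter inside either group (log2 fold change -1.05 ± 0.03, limma adjusted p = 1.46e-13). Its other probe set fell by 1.14. Usp42, an enzyme of histone H2B and p53, read 274, 281 and 284 against 441, 455 and 476 (-0.71 ± 0.05). Usp36, a nucleolar enzyme of ribosome production, read 116, 112 and 104 against 171, 170.0 and 149 (-0.56 ± 0.07). A second Usp36 probe set of about the same brightness fell by 1.09, so the size of the change depends on the probe set. The histone enzymes Usp49 (-0.32), Usp21 (-0.24) and Usp16 (-0.09) fell less. The call on Usp16 (limma adjusted p = 0.0469) was lost with quantile normalization (-0.011, adjusted p = 0.81), with its probe sets averaged (-0.053, 0.268), with no dim filter (0.0711) and with no intensity trend (0.0733). Nor did it hold when NADA replicate 1 (-0.07, adjusted p = 0.142), NADA replicate 2 (-0.10, 0.0645), vehicle replicate 2 (-0.09, 0.126) or vehicle replicate 3 (-0.08, 0.167) was left out.

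Usp22, the histone H2B enzyme of SAGA, was the member of this group that rose. Its intensities were 799, 789 and 709 in NADA and 516, 471 and 505 in vehicle, a log2 fold change of 0.62 ± 0.05 (limma adjusted p = 1.28e-08). Both of its probe sets rose. Its partners in the SAGA module did not all move with it: Atxn7 rose by 0.29, Atxn7l3 changed by -0.51 and Eny2 by -0.54, and Atxn7l2 was not called (-0.11).

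A mixed list of USPs, most of them of the proteasome, endoplasmic reticulum, mitochondria and endosomes, had 7 of 10 tested higher and 2 lower, against 35.8% and 37.5% of all genes (median 0.28). Scaling to the poly-A RNAs gave a median of -0.30, with 1 higher and 6 lower (6.96% and 76.1% of all genes). Usp33, an enzyme that recycles beta-adrenergic receptors and binds the VHL protein, read 517, 494 and 602 in NADA and 262, 273 and 274 in vehicle. The NADA arrays lay about 2-fold above, at a log2 fold change of 0.99 ± 0.06 (limma adjusted p = 3.83e-10). Usp19, which has a form anchored in the endoplasmic reticulum, read 589.5, 599.8 and 635 against 416, 367 and 414 (0.61 ± 0.05). Of its 3 probe sets 2 rose, and the other was not called (0.04). Usp25 rose by 0.50, Usp2 by 0.36, the endosomal Usp8 by 0.28, the mitochondrial Usp30 by 0.27 and Usp20 by 0.27. Every NADA array exceeded every vehicle array for these 5 genes too.

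The members of this list that fell were Usp14 and Usp5. Usp14, which trims chains on the proteasome itself, read 1362, 1419 and 1487 in NADA and 1601, 1711 and 1689.8 in vehicle (log2 fold change -0.23 ± 0.04, limma adjusted p = 5.69e-05). Its 4 probe sets ran from -0.38 to 0.05, with 2 lower and 2 not called. Usp5, which breaks down free ubiquitin chains, changed by -0.15. Psmd2, the proteasome subunit that Usp14 docks to, rose by 0.46, and Usp13 was not called (-0.03).

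Among USPs of signalling and trafficking 2 of 8 tested rose and 5 fell (median -0.22, and -0.80 scaled to the poly-A RNAs, with 1 higher and 6 lower). Usp32, a membrane-bound enzyme of the endosomal and Golgi system, read 1121, 1149 and 1018 in NADA and 595, 567 and 583 in vehicle. All 3 of its probe sets rose, the brightest by 0.91 ± 0.05 (limma adjusted p = 2.51e-11). Usp9x, which stabilises the survival protein MCL1, read 364, 357 and 328 against 247, 242 and 255, with no overlap (0.49 ± 0.05). Of its 5 probe sets 3 rose and 2 were not called, and they ranged from 0.09 to 0.49. Beside Usp46 the genes that fell were Usp12 (-0.45), Usp24 (-0.35), Usp15 (-0.24) and Usp34 (-0.21), while Usp4 was not called (-0.07).

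The genes in none of these groups, other than Usp17la, were Usp31, Usp40, Usp38, Usp54 and Usp6nl. Usp31 read 132, 133 and 145 in NADA and 233, 227 and 249.5 in vehicle (-0.79 ± 0.06). Usp40 read 156, 142 and 138 against 103, 94.9 and 97.0 (0.57 ± 0.07), and its 4 probe sets agreed within 0.53 to 0.57. Both genes thus separated the groups. Usp38 (-0.10) and Usp54 (0.03) were not called. Usp6nl rose by 0.13 (limma adjusted p = 0.0220), but only in 1 of its 3 probe sets. The call failed when NADA replicate 1 (0.09, adjusted p = 0.121), vehicle replicate 2 (0.13, 0.0645) or vehicle replicate 3 (0.13, 0.0710) was dropped. It was also lost with median centring and with the probe sets averaged. Without Usp6nl the count of USP genes that rose is 16.

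**Figure D3:**
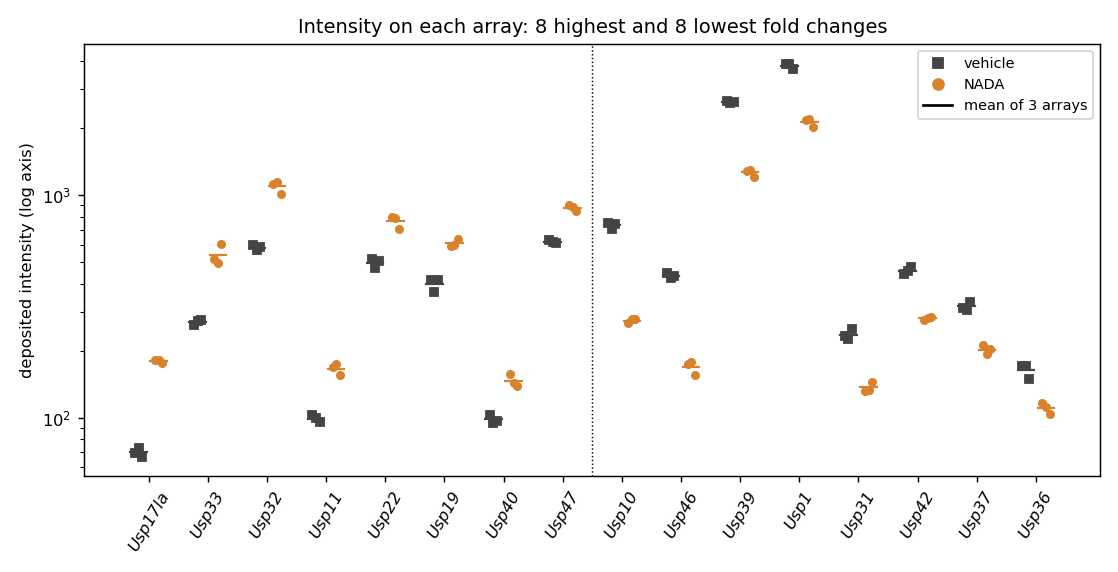
Deposited intensity on each array, on a log axis, for the 8 USP genes with the highest fold changes (left of the dotted line) and the 8 with the lowest. Circles are NADA arrays, squares vehicle arrays and bars the means of 3, and in all 16 genes the groups do not overlap.

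Of the 41 genes 25 had several probe sets above the dim limit, and none of these 25 had probe sets called in opposite directions. In 18 of them all probe sets were called the same way. The exceptions, where some or all probe sets were not called, were Usp3, Usp14, Usp16, Usp19, Usp45, Usp6nl and Usp9x. Such counts were not taken over all genes with several probe sets, so whether this agreement is usual on these arrays is not known.

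**Figure D4:**
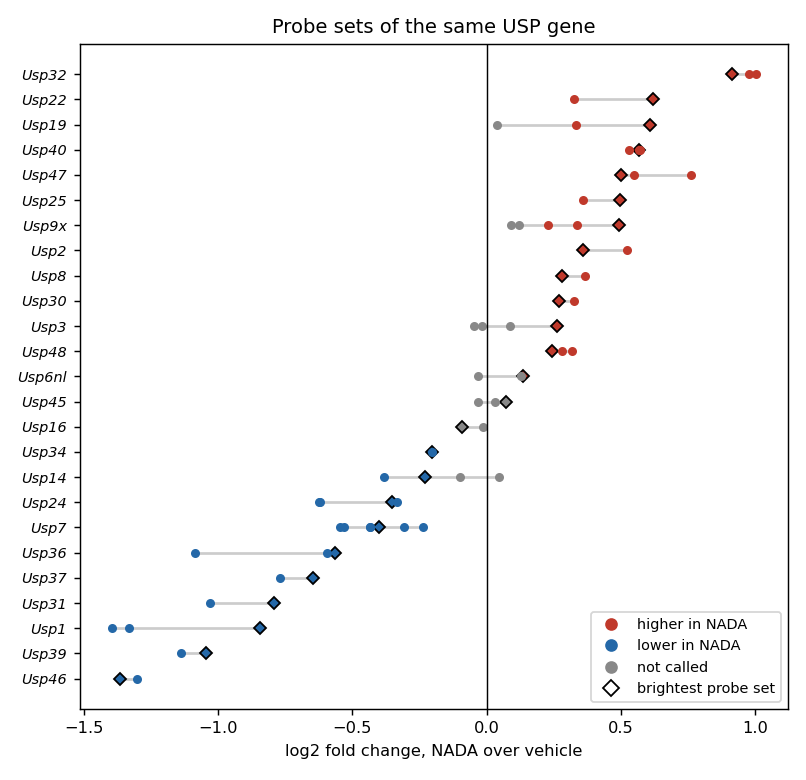
Log2 fold change, NADA over vehicle, of each probe set above the dim limit in the 25 USP genes that had several, coloured by its call in a fit over probe sets, with a diamond for the brightest. In no gene do red and blue points occur together.

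The 9 genes left out as dim were Usp26, Usp27x, Usp29, Usp43, Usp44, Usp46os2, Usp50, Usp53 and Usp9y. Their brightest probe sets had mean intensities of 10.2 to 23.4, and without the dim filter limma called 0 of 9. The smallest adjusted p among them by limma was 0.0626, for Usp43 (log2 fold change -0.24), which alone had an unadjusted p below 0.05. Of these, Usp27x shares the chromatin role of Usp22, and Usp44 acts in mitosis. A probe set paired with both Usp50 and Polr2l was bright (513 in NADA, 1568 in vehicle) but was assigned to neither.

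Several USPs are close relatives, and 8 such pairs were set side by side by how far the log2 ratio of their probe sets changed between groups. These pairs were chosen with their values known. Usp33 rose more than Usp20, by 0.72. Between Usp12 and Usp46, which share a partner, the ratio moved by -0.92. Usp47 and Usp7 went in opposite directions, a difference of 0.90, as did Usp25 and Usp28 (-0.69). Usp11 moved 0.81 above Usp4, and Usp15 0.17 below it. Usp45 moved 0.16 above Usp16. In these 7 pairs the ratios separated NADA from vehicle arrays. Single genes did so in 75.9% of all genes, and no share was taken for ratios of other gene pairs. The count of 7 therefore says nothing particular about related genes. A two-sided exact permutation test over arrays returned p = 0.1 for each of the 7 pairs (0.114 after Benjamini-Hochberg adjustment over 8 pairs). That is the floor for 3 arrays against 3, which any separated pair reaches. Usp36 and Usp42 differed by -0.15, with overlap (exact permutation p = 0.3).

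Genes for proteins that USPs bind were split as well. Of 13 tested 6 rose and 6 fell (median -0.11), against 35.8% and 37.5% of all genes. When scaled to the poly-A RNAs 1 rose and 10 fell, against 6.96% and 76.1% of all genes. Wdr48, the partner shared by Usp1, Usp12 and Usp46, rose by 0.24 and Wdr20, whose protein joins Wdr48 in complexes with Usp12 and Usp46, by 0.21, whereas the 3 enzymes fell. G3bp1, partner of Usp10, read 1371 in NADA and 2616 in vehicle on average, a log2 fold change of -0.93 ± 0.03 in the direction of Usp10, and G3bp2 changed by -0.63. The endosomal partners of Usp8, Stam (0.82) and Stam2 (0.41), rose, as Usp8 did. Gmps, which binds Usp7, changed by -0.73 and Sart3, which recruits Usp4 and Usp15, by -0.41.

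In a list of known USP substrates, also made with earlier results known, 9 of 12 genes fell and 2 rose, against 37.5% and 35.8% of all genes (median -0.68). Scaled to the poly-A RNAs 11 fell and 0 rose, where 76.1% of all genes fell (median -1.26). Pcna, a substrate of Usp1, changed by -0.81, Fancd2 by -0.56 and Fanci by -0.32. Cyclin A (Ccna2), a substrate of Usp37, changed by -0.81, and the checkpoint mediator Clspn by -1.45. The Usp7 substrates Uhrf1 and Dnmt1 changed by -1.99 and -1.01, while Mdm2 rose by 0.70 and Mdm4 by 0.21. These are mRNA levels, and no protein or ubiquitin was measured.

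Other deubiquitinases, outside the Usp symbols, had 17 of 32 tested higher and 9 lower, against 35.8% and 37.5% of all genes (median 0.14). Scaled to the poly-A RNAs 3 rose and 19 fell (median -0.43), against 6.96% and 76.1% of all genes. Mindy2, an enzyme for long ubiquitin chains, rose by 1.31 ± 0.04 and Vcpip1, which acts with the ATPase VCP, by 0.96. Uchl5, a proteasome-bound deubiquitinase, changed by -0.86 ± 0.04 and Otud4 by -0.97. Cyld, whose protein has a USP fold without the name, rose by 0.39. The proteasomal deubiquitinase gene Psmd14 rose by 0.11. Of the list of ubiquitin genes and ubiquitin-activating enzymes only Uba6 could be tested, and it changed by -0.34.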

How the data were processed

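The deposited table holds intensities on a linear scale, 2.19 to 20113, for 45101 probe sets on 6 arrays. Per the submitters' processing notes MAS5 and RMA are named, with no version or role; near-equal array medians show that the authors had normalized the values, by a method not given in the sources used here. No detection calls were used. The number of arrays limits the precision.

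From the log2 of these intensities, 64 control probe sets were set aside, and probe sets paired with 1 gene (34945) and a geometric mean intensity of at least 38.6, the median, were kept. The brightest probe set per gene was tested, NADA against vehicle, with limma 3.58.1 in R 4.3.3 (lmFit, eBayes with intensity trend, group only, two-sided). The ± of a fold change is the fit's standard error. The steps were tested on simulated data in which few genes changed and noise was independent between genes. Most genes were called on these arrays, so that test does not show how the fit behaves here. Probe sets with an x or s suffix, used for Usp39, Usp7, Usp38 and Usp45, can bind several transcripts. Among other genes named, Wdr48, Mdm4 and the marker Igll1 were also read from such probe sets.

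Values on each array are given for the 8 highest and 8 lowest called genes and for Usp1, Usp7, Usp9x, Usp14, Usp22 and Usp39. Of other lists, members were also named by role, outside the rule of up to 4 smallest p each, after their values were seen. The members, role lists and tests were chosen with earlier results of these data known. Promoter stretches are RefSeq's, and plots were drawn with matplotlib 3.10.9.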

Additional observations from a re-analysis of the deposited data

How the results depend on the processing

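Across 17 alternatives other than poly-A scaling (2 scalings, 32 added before log2 or a floor of 50, a dim filter at the 70th percentile or none, array weights, a fit with no trend, other choices of probe set, the replicate block, and each array left out), 34 of 41 USP genes kept their direction and side of the threshold, 33 of them called; a few alternatives could not test every gene. The exceptions were Usp3, Usp6nl, Usp13, Usp16, Usp38, Usp45 and Usp54. With the replicate block 17 USP genes rose and 19 fell (median -0.07) and no call changed; deviations of same-numbered arrays correlated at 0.16, -0.10 and 0.02, so the numbers were not taken as pairs. The median log2 fold change was -0.028 with quantile normalization, -0.10 with median centring, -0.097 with the stricter dim filter, -0.049 without _x_at and _s_at probe sets, and -0.089 to -0.054 with 1 array left out. Requiring 1.5-fold left 6 higher and 7 lower, by construction.

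Scaled to the poly-A control RNAs, 3 USP genes rose and 30 fell (median -0.65), as did 733 and 8009 of all 10526 genes. This scaling subtracts the same amount from every gene, so genes with smaller increases had to reverse, 13 here: Usp2 (-0.22), Usp3 (-0.31), Usp6nl (-0.44), Usp8 (-0.30), Usp9x (-0.083), Usp20 (-0.31), Usp25 (-0.080), Usp30 (-0.31), Usp40 (-0.011), Usp45 (-0.51), Usp47 (-0.076), Usp48 (-0.34) and Usp54 (-0.55). Which genes reversed depended on the amount subtracted, an average over NADA arrays whose poly-A means differed (8.87, 8.81 and 8.49 log2 units). Reversed here means a changed sign and not always a call. For example, Usp20 was called lower (limma adjusted p = 0.0212) but Usp2 was not (0.0847). Such calls do not allow for the error of that amount, which all genes share. Without 1 array Usp13 ran from -0.13 to 0.078 and Usp54 from -0.010 to 0.079, and Usp54 was -0.0090 with median centring; neither was called in these, and the cause was not tested.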
